A study of Mus musculus with 99 samples.

Results

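KK/HlJ, NZB/BlNJ and NZW/LacJ are classical inbred mouse strains of Japanese and New Zealand origin, and their heart expression profiles were set against those of the 25 other classical inbred strains of the series. The 3 strains were chosen by their strain label alone, and they make up 3 of the 99 strains in all. The other 71 strains, which are recombinant inbred lines of the BXD, AXB, BXA and BXH panels, CAST/EiJ and B6cC3-1/KccJ, serve here as further reference values. All mice were untreated males on a chow diet under a 12-hour light and dark cycle, and each strain is represented by 1 array of total heart RNA. Per the growth protocol in the labels the mice were 16 weeks old. The age field of the labels reads 33 weeks for KK, 35 for NZW and 36 for NZB, and it runs from 16 to 113 weeks along the sample order, so it was not used. The labels do not say whether an array holds RNA of 1 heart or of several, and with 1 array per strain the p-values below measure the spread between strains.

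KK mice are known for obesity with insulin resistance and type 2 diabetes. NZB mice spontaneously develop autoimmune haemolytic anaemia, and the cross of NZB with NZW is a classical model of systemic lupus with immune complex nephritis. In lupus models, the interferon response and the class II genes of the major histocompatibility complex are the gene groups most often discussed. In the diabetic heart, the balance between fatty acid and glucose use receives most attention. Inbred strains also differ by fixed sequence variants, and such a variant can change the level of a transcript or can lie under a probe of the array and change only its signal. The array values do not separate these.

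The deposited values are log2 units after robust multi-array averaging. They run from 2.40 to 13.7, and the array medians lie between 3.97 and 4.07. A gene at about 3 gives hardly any signal, and one above 13 is near the ceiling of the scale. The heart markers Myl2 and Nppa were high in all 3 hearts, but so near the ceiling that they can hardly show a difference. Myl2, the ventricular myosin light chain, was at 13.55 in KK, 13.56 in NZB and 13.57 in NZW, against 13.49 to 13.62 in the 25. Nppb, a heart marker further from the ceiling, did vary, at 12.01 in KK, 10.98 in NZB and 9.71 in NZW, against 10.37 to 12.23. The 3 prime minus 5 prime difference of the Gapdh control, a measure of RNA integrity, was -0.35 ± 0.04 (SD, n = 3) against -0.34 ± 0.09 (n = 25), and that of the actin control was 1.86 ± 0.14 against 1.94 ± 0.24. Neither differed beyond the spread of strains (two-sided exact permutation tests over 3276 splits, p = 0.844 and 0.560, both 0.844 after adjustment over the 2 tests). Of the 25 other arrays, 5 carried markers of another organ more than 2 log2 units above the median classical array, and 0 of the 3 did. Airway markers were high in DBA/2J, CBA/J, NOD/ShiLtJ and CE/J. NZW, with an airway list mean of 4.92 against a median of 3.96 in the 25, stayed under that limit but above 18 of the 25, whereas KK and NZB were at 3.32 and 3.48.

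Few genes separated the 3 strains as a group from the 25. Of 7513 genes tested with limma, 1 passed a Benjamini-Hochberg adjusted p of 0.05, which is 0.0133% of the genes tested. That gene was Abracl, which codes for a small actin-associated protein. Its level was 6.16 in KK, 6.39 in NZB and 5.83 in NZW. In the 25 other strains it ran from 6.33 in NON/ShiLtJ to 7.34 in CBA/J, with a median of 7.03. The 3 strains were thus all low, and KK and NZW lay below every one of the 25, while NZB lay above NON/ShiLtJ. Of the other 71 arrays, CAST/EiJ at 5.35 and BXH20/KccJ at 5.72 lay below all 3 strains, and 4 arrays lay below NZB. Abracl has 1 probe set here. Abracl was lower by 1.83-fold (limma difference -0.87 log2 units, SE 0.15, adjusted p 0.0129). Without NZW the limma adjusted p of Abracl was 0.119. Without the 5 arrays that carried markers of another organ it was 0.0799, and against only the 8 other classical strains whose sample titles, numbers of unstated meaning, lie near those of the 3 it was 0.0999. The direction was the same in each of these.

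At an unadjusted p under 0.05, limma found 592 genes, or 7.88% of those tested, with 224 (2.98%) higher and 368 (4.9%) lower in the 3 strains. None of the genes in the following paragraphs passed the adjusted test, and their values are given as a description.

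**Figure D1:**
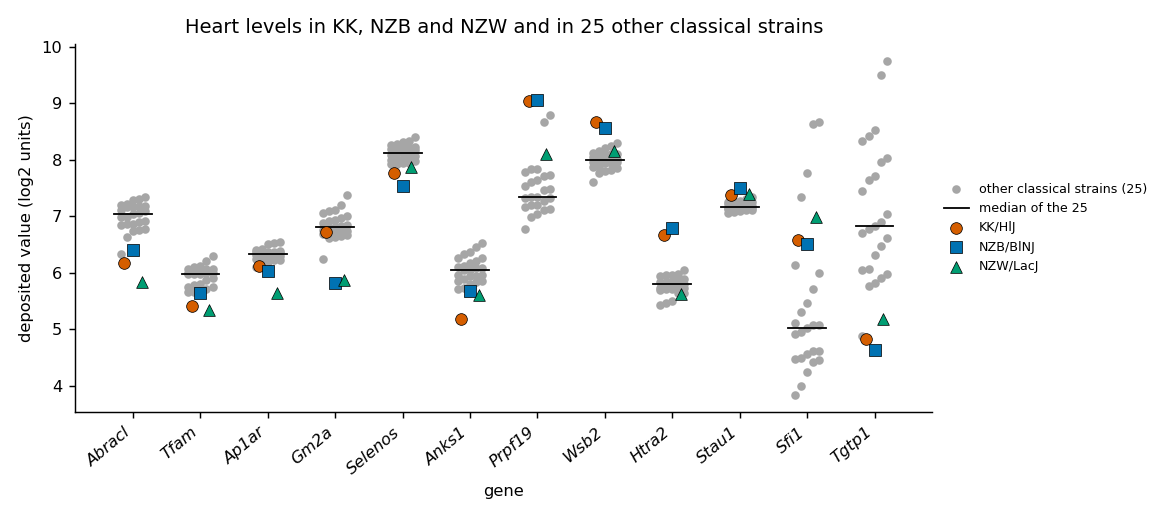
Deposited log2 value (y axis) of 12 genes (x axis) in KK (circle), NZB (square), NZW (triangle) and the 25 other classical strains (grey points, with their median as a line). Abracl, Tfam, Selenos and Anks1 were low in all 3 strains, while Prpf19, Wsb2 and Htra2 stood out mainly in KK and NZB and Gm2a in NZB and NZW.

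Of the genes with the smallest unadjusted p among those that were lower, Tfam, the mitochondrial transcription factor that packages mitochondrial DNA, was at 5.41 in KK, 5.63 in NZB and 5.34 in NZW, against 5.66 to 6.30 in the 25. The groups did not overlap, although NZB lay just below the lowest of the 25, CE/J. The limma difference was -0.48 (SE 0.11, adjusted p 0.174). Selenos, a selenoprotein of the endoplasmic reticulum that takes part in the removal of misfolded proteins, was at 7.77, 7.54 and 7.86 in KK, NZB and NZW, against 7.92 to 8.40. All 3 lay below the 25 (difference -0.40, SE 0.09, limma adjusted p 0.174). A second Selenos probe set differed by -0.45 and the other one by -0.10. Anks1, an ankyrin repeat adaptor of receptor tyrosine kinases, was at 5.19, 5.68 and 5.59 against 5.70 to 6.52, again with no overlap. Poglut2, an O-glucosyltransferase of the endoplasmic reticulum, was at 6.79, 6.66 and 6.80 against 6.83 to 7.45. Its highest value among the 3 lay just under the lowest of the 25. In its other probe set KK and NZB were at 4.33 and 4.44, below the 4.55 to 5.65 of the 25, but NZW was at 5.20, above their median.

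Ap1ar, a protein associated with the AP-1 complex of transport vesicles, was at 6.11 in KK, 6.02 in NZB and 5.63 in NZW, against 6.09 to 6.54 in the 25. NZB and NZW lay below all of the 25, and KK lay above CE/J alone. Gm2a, the lysosomal activator protein for ganglioside breakdown, was at 6.71 in KK, near the median of 6.80. It was at 5.81 in NZB and 5.87 in NZW, both below the lowest of the 25 (6.23 in C58/J), and its second probe set gave the same order, with 4.14 in KK, 3.53 in NZB and 3.60 in NZW. Of the remaining genes with the smallest p, Fastk was lower by 0.42 on the log2 scale, G3bp2, an RNA-binding protein of stress granules, by 0.59 and Prss23 by 0.40.

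Of the genes that were higher, Prpf19, a core component of the spliceosome and a ubiquitin ligase, was at 9.03 in KK, 9.06 in NZB and 8.09 in NZW. The 25 ran from 6.77 to 8.80 with a median of 7.34, so KK and NZB lay above all of them and NZW was exceeded by CBA/J and MA/MyJ alone. The difference was 1.24 log2 units, or 2.36-fold (SE 0.28, limma adjusted p 0.174). Txnl4a, another spliceosome component, was at 8.27, 8.25 and 7.98 against 7.31 to 7.98, with NZW just below the highest of the 25, but in its other probe set only KK stood out, by 1.43. Snrpn, which codes for a core small nuclear ribonucleoprotein and is expressed from the paternal allele, was at 9.80 in KK and 10.25 in NZW, above the highest of the 25 at 9.72. It was at 9.11 in NZB, near their median of 8.92. Stau1, a double-stranded RNA-binding protein of RNA transport, was at 7.37, 7.49 and 7.40 against 7.06 to 7.33. The groups did not overlap for the probe set used, but its other 2 probe sets differed by 0.09 and -0.27.

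Wsb2, the substrate receptor of a ubiquitin ligase, was at 8.66 in KK, 8.56 in NZB and 8.15 in NZW, against 7.61 to 8.30. KK and NZB lay above the range in this probe set. In the other one, at 6.62, 6.94 and 6.83 against 5.71 to 6.81, NZB and NZW did. Htra2, a serine protease of the mitochondrial intermembrane space, was at 6.67 in KK and 6.79 in NZB, above the 5.43 to 6.04 of the 25, while NZW was at 5.62, below their median of 5.79. For Prpf19, Wsb2 and Htra2 the limma adjusted p fell below 0.05 when NZW was left out. NZW had the lowest value of the 3 in each, so its removal raises the difference and adds no support. The other genes with the smallest p were Ccl19 (difference 0.82), Zfp940 (0.44), Zfp334 (0.43) and Fam53a (0.43).

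In 11 genes, or 0.146% of those tested, the 3 strains did not overlap with the 25. Of these, 4 (0.0532%) were higher (Stau1, Fam53a, Xk and Pfdn6) and 7 (0.0932%) were lower (Tfam, Selenos, Anks1, Poglut2, Gtf3c6, Prkci and Gask1b). Abracl is not among them. Of the 11 genes, 6 (Gtf3c6, Poglut2, Prkci, Selenos, Stau1 and Xk) had other probe sets, and in all 8 of those the groups overlapped. Xk, a membrane protein of red cells and muscle, was at 4.05, 4.12 and 3.99 against 3.42 to 3.98. Gask1b, a Golgi-associated protein, had the largest difference of the 11 at -0.87, with 5.80, 5.75 and 5.82 in KK, NZB and NZW against 5.86 to 7.81. Pfdn6, a prefoldin subunit that hands unfolded actin and tubulin to the chaperonin, was at 9.43, 9.36 and 9.35 against 8.34 to 9.32. The margins were small: the value of the 3 nearest to the 25 lay less than 0.1 log2 units outside their range in each of the genes whose values are given here.

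Taken one at a time, the 3 strains differed from the mean of the 25 by at least 1 log2 unit in 121 genes in KK (1.61% of those tested), 155 in NZB (2.06%) and 113 in NZW (1.5%). Each of the 25 others, set against the mean of the remaining 24, had 62 to 153 such genes. NZB thus had the highest count of the 28 classical strains by a margin of 2, next to CE/J, and KK and NZW were within the range. Of these genes, 40 (0.532%) were higher and 81 (1.08%) lower in KK, 67 (0.892%) and 88 (1.17%) in NZB, and 37 (0.492%) and 76 (1.01%) in NZW. Shared by all 3 strains, 1 gene lay at least 1 log2 unit higher and 1 gene at least 1 log2 unit lower.

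The shared high gene was Sfi1, a centrin-binding protein of centrosomes, given here by the brightest of its 3 probe sets alone. Its level was 6.57 in KK, 6.51 in NZB and 6.99 in NZW, against 3.83 to 8.66 in the 25 with a median of 5.01. In 4 of the 25, SEA/GnJ, BUB/BnJ, DBA/2J and SM/J, it was higher than in any of the 3, so the 3 strains lay between the low and the high strains. The difference was 1.30 (limma unadjusted p 0.0928). Against only the 8 other classical strains with neighbouring title numbers it was 2.04, the one gene called in that fit.

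The shared low gene was Tgtp1, an interferon-inducible GTPase of T cells and other cells that acts against intracellular pathogens. It was at 4.82 in KK, 4.62 in NZB and 5.18 in NZW. The 25 ran from 4.88 in RIIIS/J to 9.75 in SWR/J with a median of 6.83, and RIIIS/J was the only one of the 25 below the highest of the 3. Of the other 71 arrays, CAST/EiJ was at 4.81, and every BXD, AXB, BXA and BXH array lay at 6.05 or above. The difference was -2.22 (SE 0.67), and it was not called (limma adjusted p 0.313). With all 99 arrays in the limma fit, Tgtp1 was called at an adjusted p of 0.0349, as 1 of 30 genes. That fit takes its spread mostly from recombinant inbred lines, which are not independent of each other, so this p-value may be too small.

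KK and NZB shared 24 low genes, which is 29.6% of those of KK and 27.3% of those of NZB. These included the airway secretory genes Scgb1a1, Scgb3a1, Scgb3a2, Bpifa1, Cyp2f2, Cyp2a5 and Sftpc, for which strains with high airway values raise the mean of the 25. In NZB, Sftpc was 1.04 below that mean but at 3.04 against a median of 3.13, and Cyp2f2 had 11 of the 25 below it. KK lay below all of the 25 in Sftpc and above 2 of them in Cyp2f2. The shared count and the counts per strain include these genes. The airway list varied widely among the 25, with list means from 3.26 to 8.29. Scgb1a1, the main secretory protein of club cells, was at 3.11 in KK, 3.44 in NZB and 8.79 in NZW, against a median of 4.60 and a highest value of 12.9 in the 25. Of the 25, 14 lay at 5.59 or below and 11 were clearly higher, as was NZW. Ramp2, the co-receptor for adrenomedullin on vessels, was at 8.77 in KK and 8.53 in NZB, and 24 of the 25 were higher than either. Of its 3 probe sets, only the brightest is given. Myl1, the fast skeletal myosin light chain, was at 8.03 and 7.80, against 7.96 to 11.7. The 6 high genes that KK and NZB shared were Ddit4, Gng12, Lbp, Prpf19, Retreg3 and Sfi1. KK and NZW shared 5 low and 3 high genes, and NZB and NZW shared 13 low and 5 high genes.

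NZB and NZW shared the highest Hamp2 values of the classical strains. Hamp encodes hepcidin, the peptide hormone that lowers iron export by binding ferroportin, and Hamp2 is its neighbouring duplicate in the mouse. Hamp2 was at 12.01 in NZB and 12.11 in NZW, but at 5.03 in KK. In the 25 it ran from 4.29 in C57BL/6J to 11.5 in SM/J with a median of 4.88, and only SM/J, DBA/2J and RIIIS/J lay above 8.20, the midpoint between the highest of the 3 strains and the lowest of the 25. None of the 25 and of the other 71 arrays was above NZB. In the BXD panel, which descends from C57BL/6J (4.29) and DBA/2J (11.22), 12 of 30 lines lay above this midpoint, and in the AXB, BXA and BXH panels 0 of 15, 0 of 13 and 0 of 11. Hamp itself was at 7.67 in KK, 9.81 in NZB and 9.94 in NZW, against 5.53 to 9.81 in the 25, and its second probe set gave 4.99, 7.52 and 7.60. The second Hamp2 probe set was near the floor in all 3 strains (3.56, 3.35 and 3.29), so the level of Hamp2 rests on 1 probe set. Both that one and the brighter Hamp one are of a type that can bind related transcripts, and signal of one gene in the other was not tested.

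**Figure D2:**
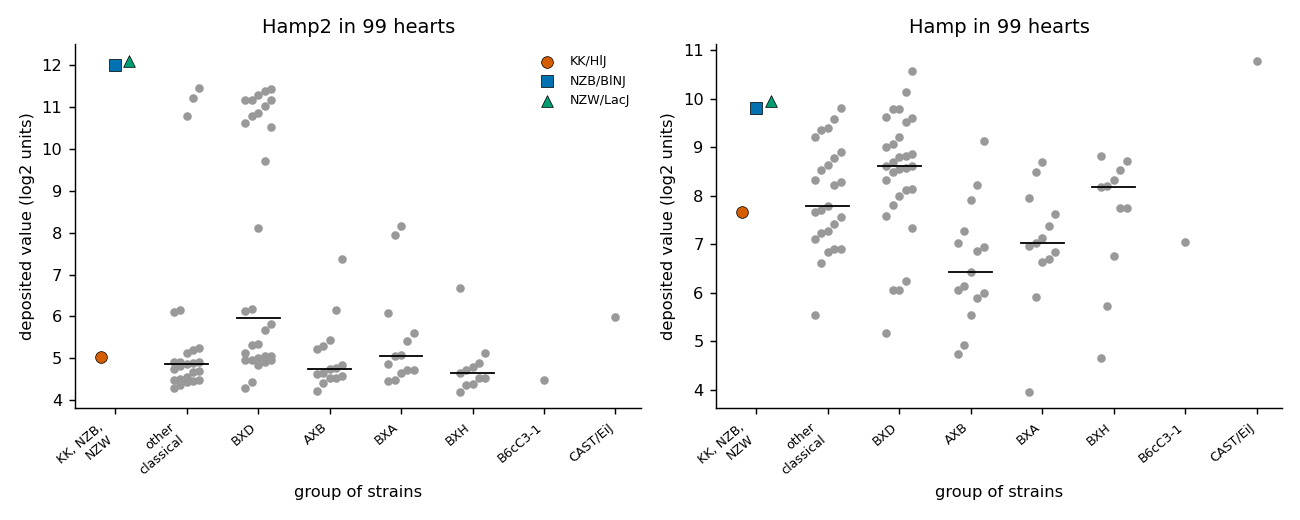
Deposited log2 value (y axis) of Hamp2 and of Hamp in all 99 hearts by group of strains (x axis), with the median of each group as a line. In Hamp2, NZB and NZW sit at 12.01 and 12.11, KK sits at 5.03 among the low strains, and the BXD lines fall at both levels, while in Hamp NZB and NZW, at 9.81 and 9.94, lie at the top of the 25.

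The promoters of the pair are printed to show how alike the copies are in the stretch before their start sites. They are the 250 bases before the transcription start in RefSeq (build GRCm38.p6, which is of C57BL/6J, a strain with low Hamp2), both on the minus strand, at chr7:30944030-30944279 for Hamp and chr7:30924182-30924431 for Hamp2. Capitals mark matches to GGCGCC, the core of the bone morphogenetic protein response element, and to TTCNNNGAA, the consensus of STAT factors, searched on both strands.
Hamp: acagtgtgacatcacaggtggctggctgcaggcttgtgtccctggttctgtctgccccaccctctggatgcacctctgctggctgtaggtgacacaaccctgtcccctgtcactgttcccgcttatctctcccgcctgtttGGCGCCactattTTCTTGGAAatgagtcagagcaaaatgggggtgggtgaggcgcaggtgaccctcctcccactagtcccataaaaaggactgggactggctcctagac
Hamp2: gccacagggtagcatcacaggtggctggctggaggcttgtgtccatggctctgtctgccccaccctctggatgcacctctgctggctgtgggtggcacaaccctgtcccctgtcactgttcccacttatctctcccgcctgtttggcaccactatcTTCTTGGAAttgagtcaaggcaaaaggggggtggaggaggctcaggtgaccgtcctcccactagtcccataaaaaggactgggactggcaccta

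A global alignment of the windows had 227 identical bases of 250, or 90.8%, with 20 mismatches. GGCGCC was found once in the Hamp window, beginning 109 bases before the start, and was not found in that of Hamp2. TTCNNNGAA was found once in each, beginning 97 and 94 bases before the start. Of all 32536 distinct promoter windows of this length, 9.65% held GGCGCC and 7.04% held TTCNNNGAA. The canonical TATAAA and the E-box CACGTG, held by 12.3% and 6.04% of the windows, were not found in either. The alleles of NZB and NZW were not read, so these letters say nothing of where the strains differ.

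KK stood out most by a low cathepsin H. Ctsh, a lysosomal cysteine protease, was at 3.54 in KK, near the floor, against 7.67 in NZB, 7.67 in NZW and 6.39 to 7.98 in the 25. All of the other 71 arrays were also higher than KK. Slc47a1, an organic cation exporter, was at 4.50 in KK against 4.60 to 8.56 (median 8.09), so that KK lay just below the lowest of the 25. Further genes of KK below the whole range were Mrps33 of the mitochondrial ribosome (7.78 against 9.26 to 9.60), Pfdn1, another prefoldin subunit (6.33 against 7.60 to 8.51), Cpe, a carboxypeptidase of peptide hormone processing (8.79 against 9.79 to 10.32), and Scrn2 (3.95 against 4.61 to 5.73). In all of these, NZB and NZW lay close to or within the range of the 25.

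Of the genes high in KK, Lbp, the lipopolysaccharide-binding protein of the acute phase, was at 8.14 in KK, 5.91 in NZB and 5.17 in NZW, against 4.05 to 7.25 in the 25. KK was above all other 98 arrays. Lgals3, the macrophage and stress lectin galectin-3, was at 9.10 against a median of 6.40 and a highest value of 8.75, also above all others. Of genes named after their values were seen, Lcn2, an iron-binding acute phase protein, was at 6.39 (25: 3.66 to 6.58), Atf3, a stress-induced transcription factor, at 6.70 (3.22 to 6.79), and Ddit4, an mTOR inhibitor induced by stress and glucocorticoids, at 10.06 (6.55 to 10.43). These 3 lay near the top of the range and not outside it. Kcnj14, an inward rectifier potassium channel, was at 6.25 against 2.90 to 5.32. Gdpd3, a lysophospholipase D, was at 9.90 in KK but 3.61 in NZB and 3.74 in NZW. It fell into 2 levels in the 25, with 9 strains at 9.65 or above and 16 at 4.45 or below, and KK was on the high side. St6galnac3, Ddx27 and Lrrc2 were also above the range in KK, although the second, dimmer probe sets of St6galnac3 and Ddx27 were 0.04 and 0.21 below the mean of the 25.

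**Figure D3:**
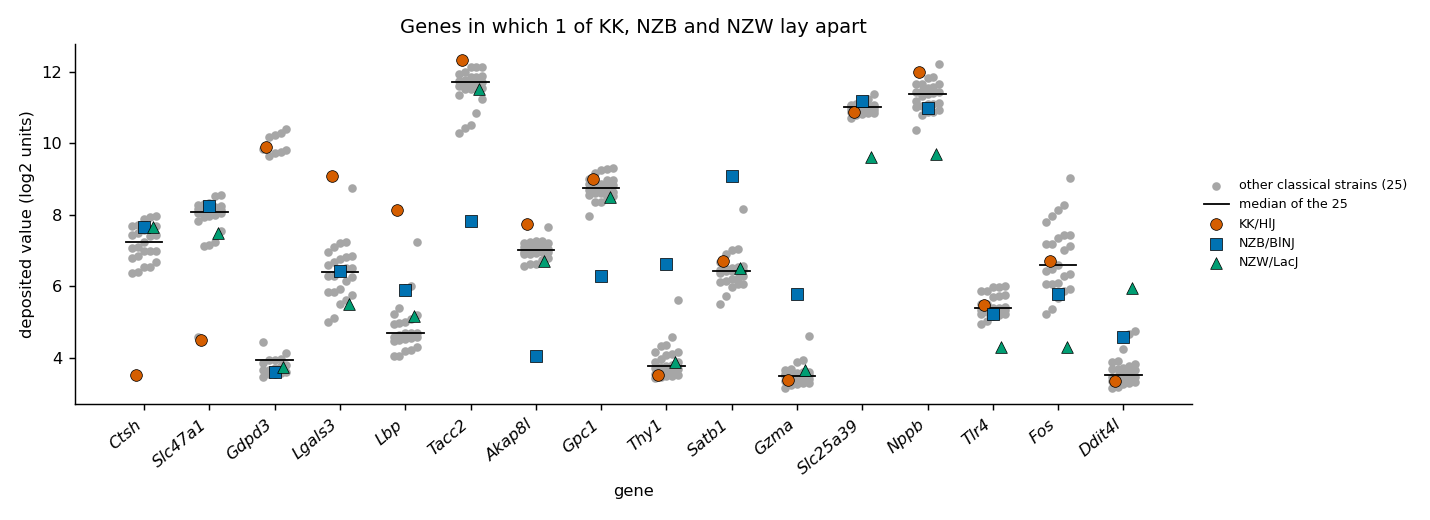
Deposited log2 value (y axis) of 16 genes (x axis) in KK (circle), NZB (square), NZW (triangle) and the 25 other classical strains (grey points, median as a line). Ctsh and Lbp stand apart in KK, Tacc2, Akap8l, Gpc1 and Thy1 in NZB, and Slc25a39, Nppb, Tlr4 and Fos in NZW, each with the other 2 strains nearer to the 25.

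NZB stood out by low values of a few genes with all 98 other arrays above it. Tacc2, a centrosomal coiled-coil protein abundant in heart and muscle, was at 7.84 in NZB against 12.32 in KK, 11.51 in NZW and 10.28 to 12.14 in the 25. Akap8l, a nuclear anchoring protein, was at 4.04 against 6.57 to 7.67, and Gpc1, a heparan sulfate proteoglycan of the cell surface, was at 6.29 against 7.96 to 9.31. In each of these 3 genes all other 98 arrays were above NZB, and each has 1 probe set here. Btg2, an antiproliferative immediate early gene, was at 4.82 against 6.31 to 9.61, but its other probe set was at 7.11, only 0.10 log2 units below the mean of the 25, so the 2 probe sets disagreed. Tpd52l1 was at 3.58 against 4.54 to 5.60.

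Of the genes high in NZB, several are markers of lymphocytes. Thy1, a surface protein of T cells, was at 6.64 in NZB, 3.54 in KK and 3.89 in NZW, against 3.43 to 5.61 in the 25. Satb1, a chromatin organiser of developing T cells, was at 9.08 against 5.52 to 8.17, Gzma, a granzyme of cytotoxic cells, at 5.78 against 3.17 to 4.60, and Pclaf, a replication factor, at 6.26 against 3.49 to 5.05. Ccl19, a chemokine of lymphoid tissue, was at 5.45 against 3.24 to 4.39, above all other 98 arrays. Of genes on the lists, Cd8a was at 6.91 (25: 3.03 to 5.25), Cd3d at 6.39 (3.11 to 5.87) and Rag1, the recombinase of developing lymphocytes, at 7.52 (2.90 to 6.06). In NZB, 10 of the 13 T cell markers on the array lay above all of the 25, against 1 in KK and 0 in NZW, and so did 5 of 8 thymus markers in NZB. Over all 11725 genes on the array, dim ones included, 5.64% lay above all of the 25 in NZB, 6.23% in KK and 4.9% in NZW. The mean of the T cell list was 4.96 in NZB, 3.33 in KK and 3.39 in NZW, against 3.20 to 4.09 in the 25, and only AXB19/PgnJ was higher among all arrays. The mean of the thymus list was 5.62 in NZB, against 3.86, 3.77 and 3.74 to 4.99, with AXB19/PgnJ and BXD14/TyJ above it. The defining markers Ptcra and Rag2 stayed near the floor in NZB, at 3.56 and 3.55.

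Only 2 of the 13 T cell markers and 2 of the 8 thymus markers passed the filter on dim genes. More cells of a type and more RNA per cell cannot be told apart in whole-heart RNA, and whether lymphoid tissue was in the sample was not tested. Genes of platelets and of other blood cells, named after their values were seen, were also high in NZB: Clec1b, a platelet receptor, was at 6.59 (25: 3.32 to 6.59), and Jchain, which joins secreted antibodies, at 6.28 (2.96 to 7.69). Ptprc, which codes for the pan-leukocyte protein CD45, was at 7.36 against 3.99 to 6.76. Of these, Ptprc lay outside the range of the 25.

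**Figure D4:**
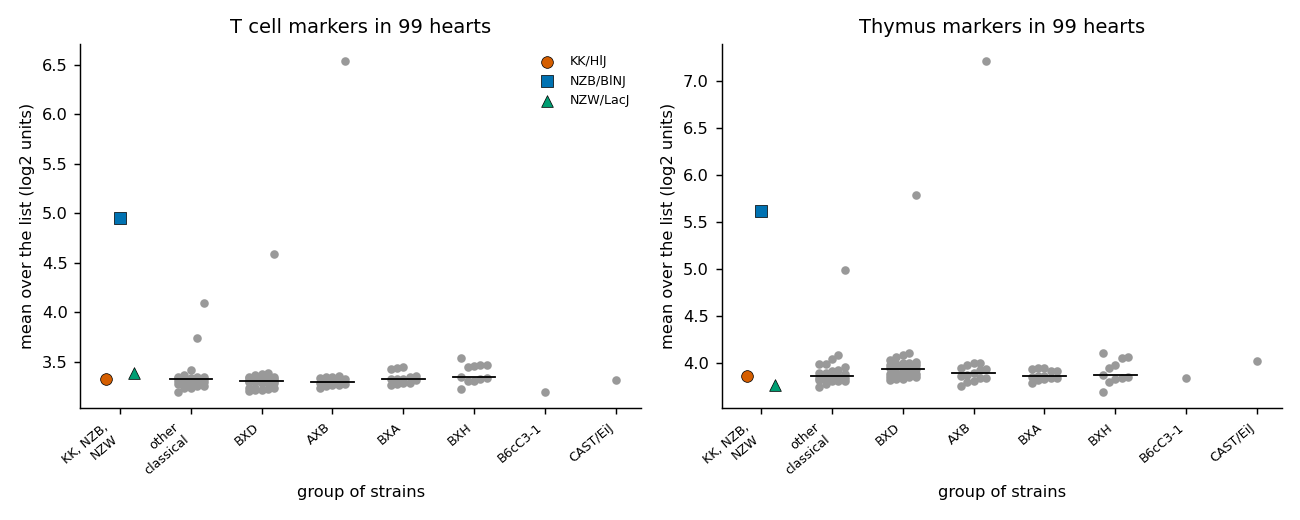
Mean deposited log2 value (y axis) over the T cell markers (13 genes) and the thymus markers (8 genes) in all 99 hearts by group of strains (x axis), with the median of each group as a line. NZB sits at 4.96 and 5.62, far above KK and NZW and above the 25 other classical strains, with AXB19/PgnJ above it on both.

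NZW lay below the range in several genes. Nppb, the B-type natriuretic peptide made by stretched cardiomyocytes, was at 9.71 in NZW, 10.98 in NZB and 12.01 in KK, against 10.37 to 12.23 in the 25. NZW lay below all of them and KK near the top. Fos, the immediate early transcription factor, was at 4.32 in NZW, 5.78 in NZB and 6.71 in KK, against 5.24 to 9.03, and Nr4a1, another early gene, was at 5.49 in NZW against 5.58 to 9.22. Pdgfb, a growth factor for pericytes, was at 4.55 against 5.60 to 6.63, but its second, dimmer probe set was 0.03 above the mean of the 25 in NZW. Slc25a39, a mitochondrial glutathione carrier, was at 9.63 against 10.70 to 11.38. Its other 2 probe sets were lower than the mean of the 25 by 1.58 and 0.07. Gm14322 was at 2.99 against 4.76 to 6.63, and Tbcel at 4.56 against 5.30 to 6.48. Tlr4, the receptor for bacterial lipopolysaccharide, was at 4.30 in NZW, 5.22 in NZB and 5.47 in KK, against 4.96 to 6.00. Both of its probe sets were lower by 1.18 in NZW.

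Of the genes high in NZW, Ddit4l, an mTOR inhibitor related to Ddit4, was at 5.97 in NZW, 4.58 in NZB and 3.37 in KK, against 3.16 to 4.76. Its second, dimmer probe set differed by 0.39 in NZW. Bcat2, the mitochondrial enzyme that starts the breakdown of branched-chain amino acids, was at 8.94 in NZW, 5.65 in NZB and 6.12 in KK, against 4.53 to 8.60. Erdr1 was at 10.40 against 3.73 to 9.83, Rbm4b at 5.05 against 3.46 to 4.25, and Uggt2, a sensor of glycoprotein folding, at 5.49 against 3.67 to 4.82. The second, dim Rbm4b probe set was at 3.04 in NZW, 0.05 below the mean of the 25, so the Rbm4b probe sets disagreed. The airway genes Bpifa1 and Scgb1a1 were also among the 4 largest positive differences of NZW, at 2.82 and 2.35, but within the range of the 25, with 7 of the 25 above NZW in each. Over all genes tested, NZW lay 0.08 log2 units below the mean of the 25 at the median, and 638 genes (8.49%) were below the whole range of the 25 against 221 (2.94%) above it. In KK these counts were 334 below (4.45%) and 488 above (6.5%), and in NZB 375 (4.99%) and 373 (4.96%). Low values in NZW are therefore to be read against this shift.

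Gene lists were then described by the count and the median of their members. Over all genes tested the median difference between the 3 strains and the 25 was -0.02, with 4204 of 7513 genes negative. No member of any list was called by limma at an adjusted p of 0.05.

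Most tested members of the interferon response and antigen presentation lists had lower values in the 3 strains as a group. Of 25 interferon response genes tested, 22 were negative, with a median of -0.44, and 1 had an unadjusted p under 0.05, which was Tgtp1. Rsad2, an antiviral enzyme, was at 6.99, 7.74 and 6.90 in KK, NZB and NZW against 6.29 to 9.14 in the 25. Irgm1, a GTPase of the same kind as Tgtp1, was at 4.55, 4.35 and 3.30 against 4.03 to 7.50, with NZW below the range. The mean of the list was 4.39, 4.63 and 4.39, inside the 4.13 to 6.02 of the 25 and below their median of 4.79. Of 17 genes of the major histocompatibility complex and antigen presentation, 16 were negative, with a median of -0.45 and 0 with an unadjusted p under 0.05. The medians of KK and NZW were -0.58 and -0.66 and that of NZB was -0.10. The list mean was 4.82, 5.20 and 4.91 in KK, NZB and NZW, against 4.74 to 6.34 in the 25. NZB lay above their median of 5.16 and had 7 of the 17 genes positive, so the low values were mainly those of KK and NZW. H2-Ab1, a class II chain, was at 5.38 in KK, 6.73 in NZB and 4.32 in NZW, against 4.07 to 9.56. Of 13 macrophage genes, 12 were negative for the group with a median of -0.18. KK and NZB had medians of -0.29 and -0.34, while NZW was at 0.01 with 7 of the 13 positive. The T cell list had only 2 tested genes, and its group median of 0.65 rested on NZB, at 2.00, with KK at -0.15 and NZW at 0.09. Of the 2, Gzma had a mean of 3.61 over all arrays, just above the filter at 3.59. Its high value in NZB enters that mean, so the median of this list is not set against the others. Against the 8 classical strains with neighbouring title numbers, the medians of the interferon and antigen presentation lists were -0.14 and -0.19.

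Of the 29 lupus and autoimmunity genes on the array, 11 were bright enough to be tested, and their median was -0.12. Fcgr2b, the inhibitory Fc receptor of B cells and macrophages, was at 5.25 in KK, 4.81 in NZB and 6.21 in NZW, against 4.58 to 7.78 (limma difference -1.02, unadjusted p 0.0436). Only the brightest of its 4 probe sets is given. KK and NZB were low within the range, and NZW was below the median of 6.52. Ifi202b, an interferon-inducible candidate gene of the NZB lupus locus Nba2, was at 4.99 in KK, 5.37 in NZB and 3.59 in NZW, against 3.48 in C57BL/6J to 7.23 in DBA/2J. NZB thus lay above the median of 4.52 and was exceeded by 10 of the 25. Its relative Ifi205 was at 7.01 in KK and 7.32 in NZW but at 3.56 in NZB, below all of the 25. Hc, complement component 5, was near the floor in all 3 (3.11, 3.31 and 3.13, against 2.96 to 6.67).

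For H2-Ea, the class II gene whose transcript is missing in some haplotypes, the probe sets disagreed. The one used gave 4.47, 5.70 and 5.92 in KK, NZB and NZW, against 4.26 to 6.16 in the 25. Another gave 3.23, 8.22 and 4.15, with a range of 3.10 to 9.35 in the 25. NZB was thus toward the high end in both, and NZW only in the one used. Glo1, the glyoxalase that detoxifies methylglyoxal, was at 7.68 in KK, below the 8.14 to 10.48 of the 25, at 8.40 in NZB and at 8.96 in NZW. Its other 2 probe sets placed the 3 strains closer together, at 8.18, 7.95 and 7.94 and at 6.82, 7.03 and 6.78. Nnt, the mitochondrial transhydrogenase, was at 11.24, 11.46 and 11.54 against 10.73 in C57BL/6J to 11.52.

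Heat shock and endoplasmic reticulum chaperones were the list with most low members at an unadjusted p under 0.05: 7 of 26, against 4.9% of all genes. Of the 26, 23 were negative, and the median was -0.24. The 7 were Hsp90b1, Dnajc3, Xbp1, Hsp90aa1, Hspa5, Hspe1 and Manf. Hsp90b1, the endoplasmic reticulum form of Hsp90, was at 8.46 in KK, 8.75 in NZB and 8.95 in NZW, against 8.56 to 9.51 with a median of 9.21. Dnajc3, a co-chaperone that restrains the kinase PERK, was at 6.35 and 6.56 in KK and NZB, below the 6.78 to 7.93 of the 25, and at 7.42 in NZW, above their median of 7.32. Xbp1, the transcription factor of the unfolded protein response, was at 8.35, 8.07 and 8.12 against 8.07 to 8.92, and Hspa5, the chaperone BiP, at 10.13, 10.01 and 9.92 against 9.88 to 10.85. The list mean was 7.97 in KK, 7.81 in NZB and 7.84 in NZW, against 7.84 to 8.46. The count of low members was 2 without NZB, 2 against the classical strains with neighbouring title numbers and 2 against all 96 other arrays.

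**Figure D5:**
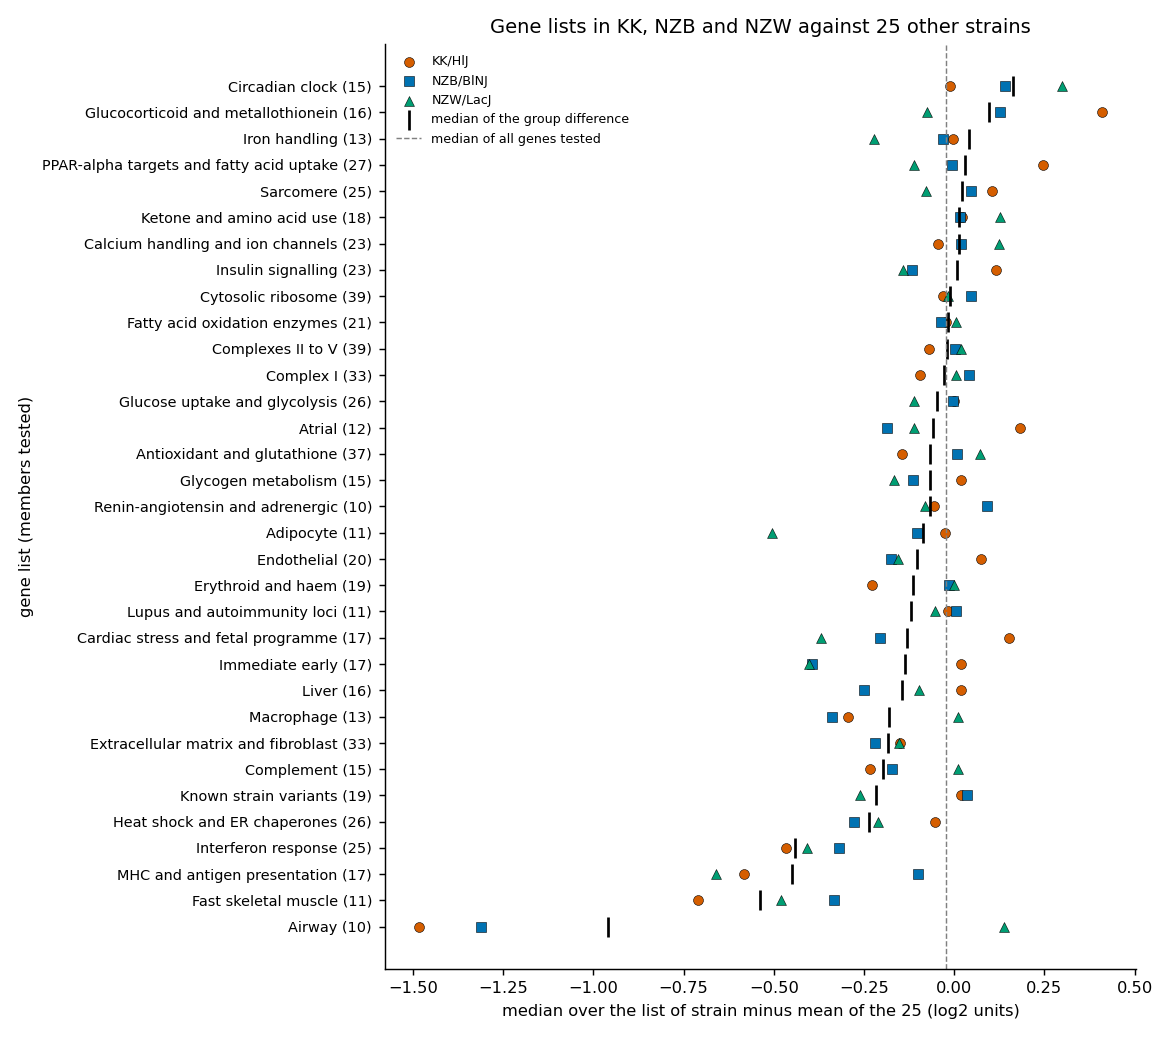
Median over each gene list (y axis, with the number of members tested) of each strain minus the mean of the 25 other classical strains (x axis, log2 units) for KK (circle), NZB (square) and NZW (triangle), for lists with at least 10 members tested. Interferon response and antigen presentation lie to the left of the median of all genes, at -0.44 and -0.45 for the group. Airway and fast skeletal muscle lie further left, at -0.96 and -0.54, and some of the 25 had high values of these lists. Most lists of energy metabolism lie near the median of all genes, with KK at 0.24 for the PPAR-alpha targets.

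For the 3 strains as a group, the lists of fuel use lay near the median of all genes, but KK differed from NZB and NZW in several. The group median of 23 insulin signalling genes was 0.01, of 27 targets of the lipid-sensing receptor PPAR-alpha 0.03, of 21 fatty acid oxidation enzymes -0.02, of 26 genes of glucose uptake and glycolysis -0.05, of 33 complex I genes -0.03 and of 39 genes of complexes II to V -0.02. In KK, 27 of the 33 complex I genes and 32 of the 39 of complexes II to V were negative, against 48.6% of all genes tested in KK. The corresponding counts were 11 and 18 in NZB and 15 and 15 in NZW. The shifts in KK were small, with medians of -0.09 and -0.07. Its list mean over the members on the array was 11.34 for complex I, below the 11.35 to 11.53 of the 25, and 11.52 for complexes II to V, below 24 of the 25. Below all of the 25 in KK were 5 of the 33 complex I genes, against 4.45% of all genes tested. The list mean of glucose uptake and glycolysis in KK was 9.21, above the 9.04 to 9.19 of the 25, although its median was 0.00 with 13 of 26 genes positive. Its highest difference there was 1.13, in Pfkp, the platelet form of phosphofructokinase. For the PPAR-alpha targets KK was at 0.24, NZB at -0.01 and NZW at -0.11. Plin5, which coats lipid droplets next to mitochondria, was at 9.47 in KK, above the 8.24 to 9.33 of the 25, at 8.56 in NZB and at 8.27 in NZW. Mlycd, which breaks down malonyl-CoA, was at 8.03 in KK, also above the range of 6.84 to 7.76. Cpt1b, the muscle carnitine palmitoyltransferase, was at 10.55, 10.71 and 10.50 in KK, NZB and NZW against 10.28 to 10.86, and Pdk4, which restrains glucose oxidation, at 12.69, 12.59 and 12.34 against 12.20 to 12.81. Pdk1, its relative, was at 5.64 in NZB, below the 6.52 to 7.57 of the 25, and at 7.88 in NZW, above it. Trib3, an inhibitor of Akt, was at 4.17, 3.73 and 3.88 against 3.23 to 3.93 (unadjusted limma p 0.0103), and Igfbp3 at 4.45, 4.88 and 4.42 against 3.46 to 4.87 (0.0127).

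Of the lists of heart structure and stress, sarcomere genes had a median of 0.02 and calcium handling and ion channel genes of 0.01 for the group. Most sarcomere genes were positive in KK and NZB, with 20 of 25 in KK, 18 in NZB and 9 in NZW. Over all genes tested the shares were 51.4%, 48.6% and 37.4%. NZW was thus near its own share of all genes, and its sarcomere median of -0.08 was also that of all its genes. The sarcomere list mean was 11.97 in KK, above the 11.71 to 11.93 of the 25, 11.92 in NZB and 11.72 in NZW, where 24 of the 25 were higher. Myom1, an M-band protein, was at 11.95 in KK, above the 11.17 to 11.90 of the 25, and at 11.48 in NZB and 11.43 in NZW. For calcium handling and ion channels the medians were -0.04, 0.02 and 0.12 in KK, NZB and NZW. The cardiac stress and fetal programme list had a median of -0.13, with KK at 0.15, NZB at -0.21 and NZW at -0.37. Postn, a matrix protein of activated fibroblasts, was at 7.29, 7.51 and 7.73 against 7.12 to 8.85, and 33 genes of the extracellular matrix had a median of -0.18 with 23 negative. Immediate early genes had a median of -0.39 in NZB and -0.40 in NZW but 0.02 in KK. Glucocorticoid-responsive genes had a median of 0.41 in KK, 0.13 in NZB and -0.08 in NZW. Circadian clock genes had a median of 0.30 in NZW, where Dbp, an output gene of the clock, was at 7.48, against 6.05 in NZB, 4.04 in KK and 3.92 to 7.84 in the 25. KK was near the low end of the range for Dbp and NZW near the high end. The hour at which hearts were collected is not stated in the sources used here, and its part in these values was not tested.

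Across genes, KK with NZB and NZB with NZW were more alike than the median pair of classical strains, and KK with NZW were less alike. After the mean of the 28 classical strains was taken from each gene, Pearson's r across 7513 genes was 0.13 for KK with NZB, 0.10 for NZB with NZW and -0.16 for KK with NZW. These stand at ranks 24, 42 and 327 of the 378 pairs of classical strains, whose r ran from -0.33 to 0.40 with a median of -0.04. Genes are not independent replicates, and no test was made. The closest strain to KK was LP/J (r 0.29). The closest to NZB was KK, and the closest to NZW was NZB. At least 1 log2 unit separated KK from NZB in 229 genes, NZB from NZW in 253 and KK from NZW in 355, where the 378 pairs had 128 to 528.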

How the data were processed

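Affymetrix HT_MG-430A arrays of 99 hearts gave 22416 probe sets, deposited by the authors as log2 values. Per the submitters' processing notes, GCOS and RMA were used, with no version stated. RMA includes background correction, quantile normalization and probe summary, so arrays already share a distribution. No scanner files were used, so signal over background could not be examined and precision is limited by the number of arrays. A genome build of the probe design is not stated in the sources used here.

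Of the probe sets, 17783 had 1 gene symbol in the platform annotation, 284 several and 4349 none here, and 17759 matched RefSeq genes (GRCm38.p6) by Entrez identifier. Each of 11725 genes was represented by its brightest probe set, and 7513 with a mean above the 40th percentile (3.59) were tested. KK, NZB and NZW (n = 3) were compared with the 25 other classical strains in limma 3.58.1 (R 4.3.3, data.table version 1.17.8; lmFit, eBayes, no covariate, only these 28 arrays), with Benjamini-Hochberg adjustment over all genes. Python 3.11.15, numpy 2.4.6, pandas 2.3.3, scipy 1.17.1 and matplotlib 3.10.9 were also used. The array controls were compared by exact permutation. Of 1059 entries in 42 gene lists, 850 were on the array; lists had no test.

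The genes named were the called gene, the 10 genes with the smallest p in each direction, the 5 genes farthest outside the range of the 25 in each direction for each strain, and fixed known variants and heart markers; other genes were chosen after their values were seen. Myh6 had no probe set with a single symbol and Nppa and Myh7 lay near the ceiling in the probe sets used. The second Myh7 probe set, with a mean of 9.82, was at 10.47 in KK, 11.63 in NZB and 10.04 in NZW. In the 25 it ran from 8.23 to 11.69 with a median of 10.34, so NZB was near the top of the range. The strains and lists were chosen with earlier results of these data known. Because 1 gene was called, the planned share of called genes that neighbour each other was not computed. In data simulated for this comparison (7513 genes), limma recovered 55.2% of 67 genes changed by 0.5 log2 units. It recovered 88.1% of 67 changed by 1 and 100% of 66 changed by 2, with 12 false calls. These rates belong to the simulated data, in which far more genes were changed than were called here. They do not give the power of the real comparison. There, Prpf19 with a difference of 1.24 (limma adjusted p 0.174) and Hamp2 with 4.10 (limma adjusted p 0.390) were not called.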

Additional observations from a re-analysis of the deposited data

How the results depend on the processing

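The count of called genes was 1 (Abracl) in 9 alternatives: no filter, a filter at the 60th percentile, the mean of all probe sets, median centring, quantile normalization of the compared arrays, a trend and robust prior, and the Gapdh control, the actin control or the title number as covariate. It was 0 when 5 arrays that carried markers of another organ were left out, where 573 genes had an unadjusted p under 0.05, and 1 against the 8 strains with neighbouring title numbers, where the gene was Sfi1 and not Abracl. It was 30 with all arrays in the fit and 47 with all 96 other arrays as the reference (13 higher, 34 lower). Both have more residual degrees of freedom, but mostly from recombinant inbred lines that are not independent of each other. Leaving out 1 of the 3 strains gave 2 to 8 calls: 8 without KK, 6 without NZW, 2 without NZB. Abracl was called without KK or NZB and not without NZW.

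The count of genes whose groups do not overlap, added after the data were seen, was 11. It was 6 with the mean of all probe sets, 7 after median centring, 17 when those 5 arrays were left out and 93 against the strains with neighbouring title numbers. Leaving out 1 strain gave 47 (without NZB) to 103 (without NZW), and 97 without KK. The counts of genes past 1 log2 unit in KK, NZB and NZW stayed within 1.5 times under 6 alternatives.

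Of 926 values of the 59 named genes under 16 alternatives, 21 changed sign, all of genes that were not called, and 18 of them by leaving out 1 strain. The ranges over leaving out each strain are given. The sign changed without KK in St6galnac3 (-0.16 to 0.51), Ctsh (-1.62 to 0.45), Cpe (-0.66 to 0.0065), Scrn2 (-0.51 to 0.17) and Myh7 (-0.053 to 0.083). It changed without NZB in Pclaf (-0.10 to 1.11), Gzma (-0.014 to 1.18), Thy1 (-0.20 to 1.35), Akap8l (-1.65 to 0.20), Tacc2 (-1.87 to 0.37) and Tpd52l1 (-0.72 to 0.064). It changed without NZW in Rbm4b (-0.40 to 0.43), Uggt2 (-0.17 to 0.64), Slc25a39 (-0.73 to 0.046), Pdgfb (-0.93 to 0.17), Tbcel (-0.73 to 0.077), Nppb (-0.97 to 0.18) and Ifi202b (-0.68 to 0.21). With all other arrays as the reference it changed in Ifi202b (0.44) and Myh7 (-0.010), and against neighbouring title numbers in Ifi202b (0.45), and the cause was not tested. No paired analysis was possible because the labels give no replicate numbers that the groups share.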

Other observations

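With all 96 other arrays as the reference, limma called 47 genes at an adjusted p of 0.05, some of which the comparison with the classical strains does not show. Cdc37, the co-chaperone that brings kinases to Hsp90, was at 9.34 in KK, 9.44 in NZB and 9.28 in NZW, against 8.72 to 9.15 in the 71 arrays that are not classical strains and 8.82 to 9.38 in the 25. All 3 strains lay above the 71, and 4 of the 25 were at or above the lowest of the 3. Pfkp, the platelet form of phosphofructokinase, was at 8.87, 8.32 and 8.21, against 6.41 to 7.75 in the 71 and 6.90 to 8.89 in the 25. Adat2, a deaminase that edits transfer RNA, was at 5.38, 5.18 and 4.70 against 3.34 to 4.33 and 3.24 to 5.36. Fbln1, a fibulin of the extracellular matrix, was at 7.90, 8.42 and 8.60 against 6.82 to 8.23 and 7.21 to 8.26. Hagh, the glyoxalase that follows Glo1, was lower, at 6.99, 7.26 and 7.62 against 7.63 to 8.64, and against a median of 7.86 in the 25. Man2a1, a Golgi mannosidase, was also lower, at 5.09, 5.65 and 6.48 against 6.43 to 7.78 and 5.63 to 8.24. The 71 arrays are mostly recombinant inbred lines of few parents, so they are not independent of each other and these p-values may be too small. The 47 genes were read after the values were seen and stand as a description.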
